A study of Mus musculus with 11 samples.

Results

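Pdcd1, Ctla4, Lag3, Havcr2 and Cd160 encode inhibitory checkpoint receptors of T cells, and their RNA was followed in T cells that had been cultured with dendritic cells from different organs. Every probe set to which the array annotation gives 1 of these 5 symbols and no other was taken, which gave 7 probe sets for the 5 genes, of 20380 single-symbol probe sets for 12393 genes on the array. Cd160 had 3 probe sets (1420396_at, 1420066_s_at and 1420067_at) and the other genes 1 each: 1449835_at for Pdcd1, 1419334_at for Ctla4, 1449911_at for Lag3 and 1451584_at for Havcr2. All 5 genes, by the probe set of highest mean, passed the filter on low values and were among the 7436 genes tested.

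Single-colour arrays measured total RNA of T cells of the B10.BR mouse strain after 4 days of stimulation by dendritic cells (DCs) of the C57BL/6 strain, which differs from B10.BR at the major histocompatibility locus. The DCs came from Liver, MLN, PLN or Spleen, as the labels write the organs, and the T cell strain, the DC strain and the time were the same on every array. There were 3 arrays for Liver, 3 for MLN and 3 for PLN, with the replicate numbers 2, 3 and 4. Spleen was represented by 2 arrays, whose replicate numbers were 3 and 4. The labels give no T cells without DCs, no T cell subset, no step that removed the DCs, no animal sex or age, and no meaning for the number.

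Checkpoint receptors are induced when a T cell is stimulated through its antigen receptor and then dampen that stimulation. PD-1, the product of Pdcd1, binds PD-L1 and PD-L2 and recruits phosphatases to the antigen receptor, whereas CTLA-4 competes with the costimulatory receptor CD28 for CD80 and CD86. LAG-3 binds class II molecules, TIM-3 (from Havcr2) has galectin-9 among its reported ligands, and CD160 binds the herpesvirus entry mediator encoded by Tnfrsf14. Sustained expression of several of these receptors at once marks exhausted T cells in chronic infection and tumours, while brief expression accompanies ordinary activation.

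T cell transcripts were strong on all 11 arrays: the T cell receptor complex gene Cd3d ran from 5832 to 8866 in deposited intensity and the surface gene Thy1 from 7188 to 10730. Cd8a (2609 to 3684) and Cd4 (767 to 1340) were both present, so the label does not separate the 2 lineages. The hepatocyte gene Alb reached at most 64.8, and the macrophage complement gene C1qa lay between 2.9 and 9.2, but 5 of 9 macrophage, monocyte and Kupffer cell markers passed the filter, among them Ctss (1862 to 3076) and Csf1r (119 to 225). Of the 4 B cell markers, Ighm was at 7730 to 11480, while Cd79a reached at most 235, Cd79b 355 and Ms4a1 248. Class II and DC genes were measurable on every array, with Cd74 from 1254 to 2188 and the DC chemokine gene Ccl22 from 506 to 3572. In such bulk RNA, fewer cells of a type and less RNA per cell cannot be told apart. Arrays correlated pairwise at 0.965 to 0.984 over probe sets.

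Organ of the DCs and array number went with different receptors. Pdcd1 went with the organ: its level was highest in T cells cultured with Liver DCs and lowest with MLN DCs at each of the 3 numbers. Lag3, Ctla4 and Havcr2 went with the number, and most of the variance of the tested Cd160 probe set went with neither. After normalization, array number accounted for 98.4% of the variance of Lag3 over the 11 arrays, 87.1% for Havcr2, 81.5% for Ctla4, 15.2% for Cd160 and 1.98% for Pdcd1. Organ, taken after number, accounted for 85.4% for Pdcd1, 14.5% for Cd160, 10.8% for Ctla4, 9.91% for Havcr2 and 0.797% for Lag3. The medians over all tested genes were 51.9% for number and 18.3% for organ. Ranked from the highest share among 7436 genes, Lag3 stood at 2 for number and Pdcd1 at 23 for organ, while Pdcd1 stood at 7283 for number. These shares are descriptions of 11 arrays and carry no test.

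**Figure D1:**
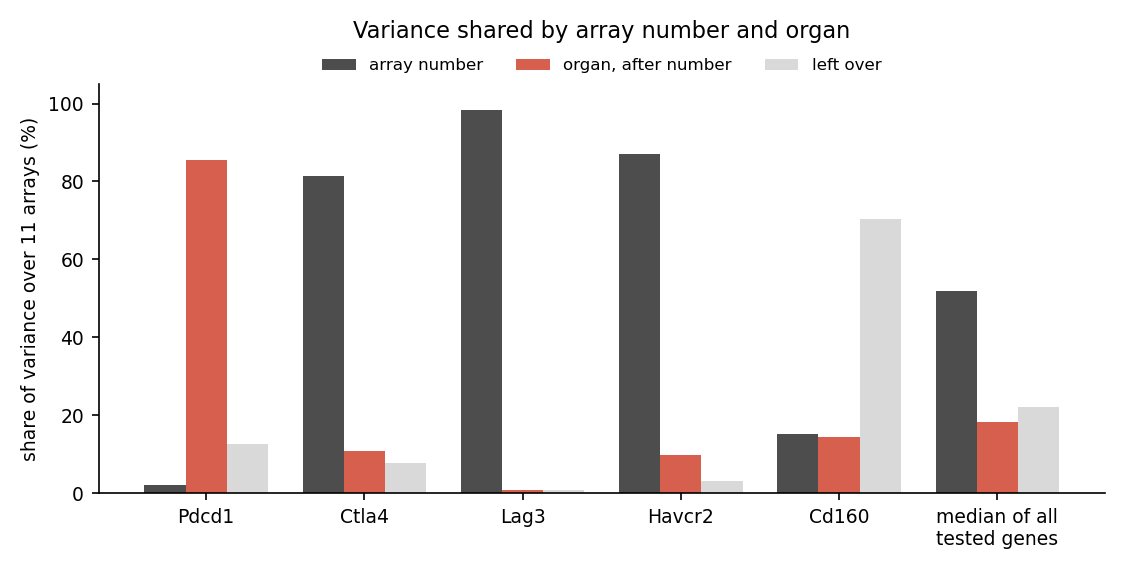
Share of the variance of the log2 level over the 11 arrays (%) that went with array number, with organ after number, and with neither, for each gene's tested probe set and as the median over all tested genes. Organ takes 85.4% for Pdcd1, and number takes 98.4% for Lag3, 87.1% for Havcr2 and 81.5% for Ctla4.

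Pdcd1 had deposited intensities of 621, 517 and 601 in Liver cultures numbered 2, 3 and 4, against 163, 269.5 and 205 in MLN cultures of the same numbers. PLN cultures had 329, 388 and 271, and Spleen cultures numbered 3 and 4 had 372 and 449.7. Every Liver array lay above every array of the other organs. The MLN arrays all lay below the PLN and Spleen arrays in deposited intensity, but after normalization MLN replicate 3, at 8.17, lay above PLN replicate 4, at 8.11.

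On the normalized log2 scale, log2(intensity + 16), Pdcd1 averaged 9.20 ± 0.14 in Liver, 7.85 ± 0.34 in MLN and 8.41 ± 0.28 in PLN cultures (SD, n = 3 each), and 8.70 ± 0.19 in Spleen cultures (SD, n = 2). Liver exceeded MLN by 1.36 (SE 0.20; 95% interval 0.92 to 1.79), a ratio of 2.56 (95% interval 1.9 to 3.45) on the intensity + 16 scale. This difference passed the limma test without a block (adjusted p = 0.0305), in which 0.161% of all tested genes passed, and again with the array number as a block (adjusted p = 0.00147), in which 4.13% passed. Pdcd1 was the only one of the 5 genes that passed in either fit. Between numbers it did not pass, at 0.15 (SE 0.17; limma adjusted p = 0.597) for 3 minus 2 and -0.09 (SE 0.15; 0.671) for 4 minus 3.

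The unblocked call depended on single arrays. It held in 5 of 11 fits that each left out 1 array. The limma adjusted p was 0.188 without Liver replicate 2, 0.0629 without Liver replicate 3 and 0.149 without Liver replicate 4. It was 0.0988 without MLN replicate 2, 0.0811 without MLN replicate 4 and 0.0588 without PLN replicate 2. The difference itself ran from 1.18 to 1.52 in these fits. With the block, all 11 such fits kept the call, with limma adjusted p from 0.00131 to 0.0173.

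**Figure D2:**
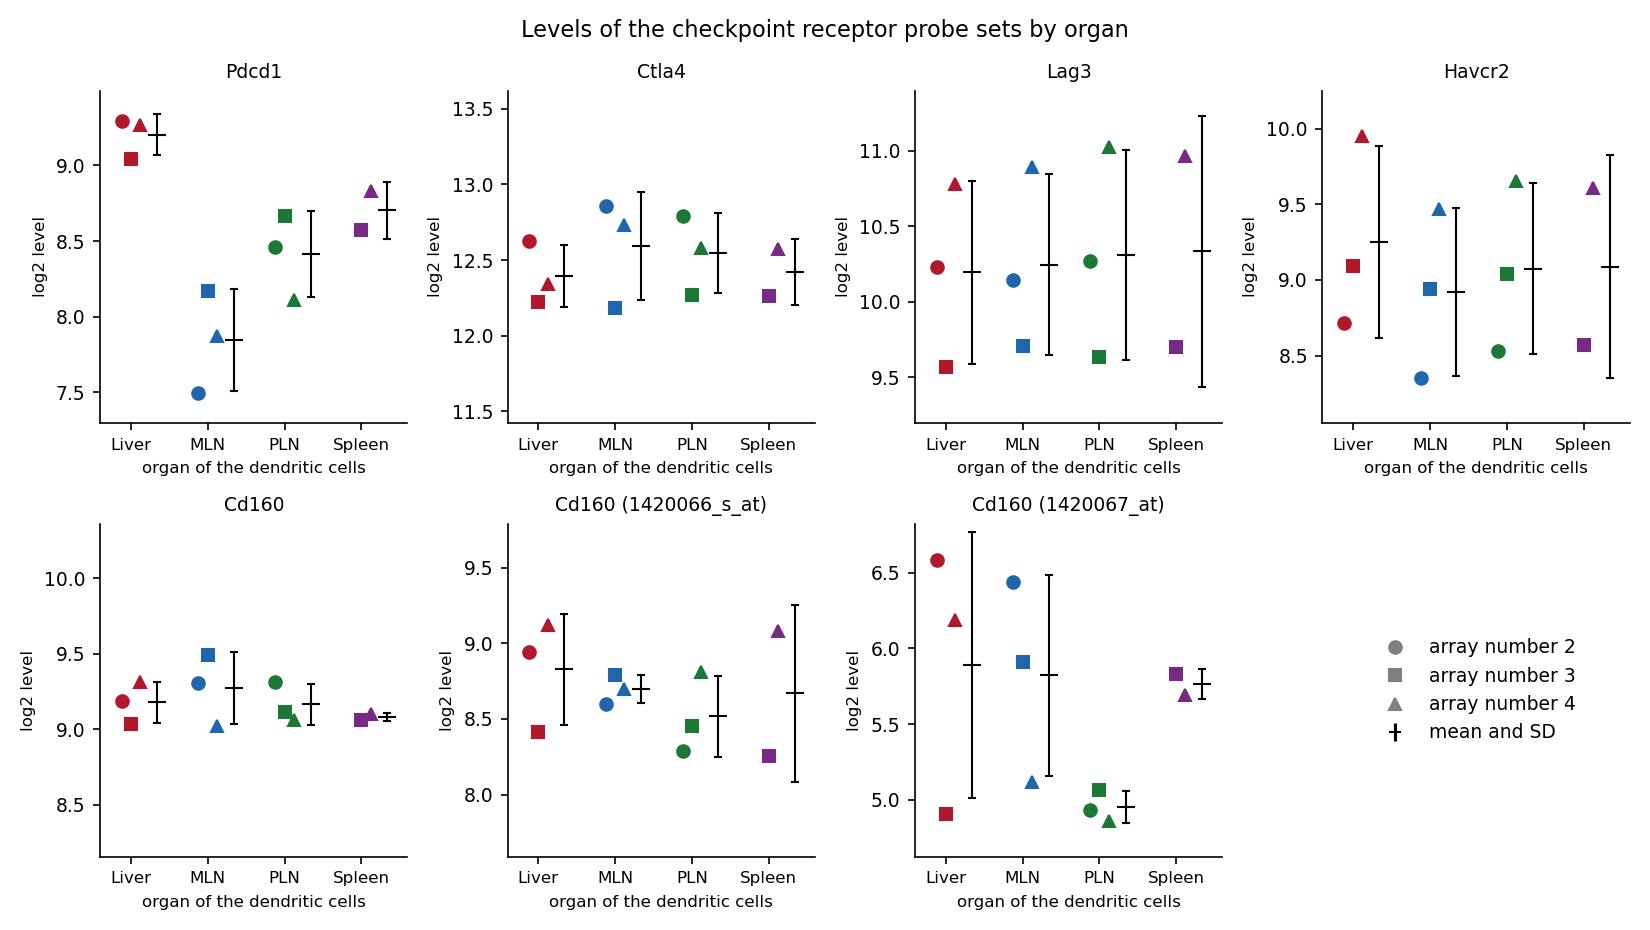
Normalized log2(intensity + 16) of the 7 probe sets by organ of the DCs, with 1 point per array shaped by its number and bars for the mean and SD of each organ (n = 3 for Liver, MLN and PLN, n = 2 for Spleen). Every panel spans the same height on the log2 scale. For Pdcd1 all Liver points lie above those of the other organs, while MLN and PLN overlap, as do PLN and Spleen. The points of Lag3 separate by number. Neither separation was counted over all tested genes.

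Set against the mean of the other organs, Pdcd1 was higher in Liver by 0.88 (SE 0.16) and differed in MLN by -0.93 (SE 0.16). Neither passed without the block (limma adjusted p = 0.222 and 0.107), where 0.0% and 0.0941% of all genes passed. Both passed with it (limma adjusted p = 0.0127 for 0.89 in Liver and 0.0105 for -0.91 in MLN), where 2.14% and 1.36% of genes passed. The blocked Liver call was lost without Liver replicate 2 (0.114) or Liver replicate 4 (0.110), and the blocked MLN call without MLN replicate 2 (0.0924) or MLN replicate 4 (0.0774). Each organ's mean of the others holds the opposite extreme, so these 2 values share arrays. Against the mean of the other organs, none of the 5 genes passed in PLN (0.0% of genes without the block and 0.0134% with it) or in Spleen (0.0% in both fits).

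The limma F-test across the 4 organs gave Pdcd1 an adjusted p of 0.151 without the block (0.0403% of genes passed) and 0.0109 with it (1.98% passed). The blocked F-test was lost without Liver replicate 2 (0.0904), Liver replicate 4 (0.0631) or MLN replicate 4 (0.0580). None of Ctla4, Lag3, Havcr2 and Cd160 passed the F-test in either fit.

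In order of level, Pdcd1 ran Liver, Spleen, PLN, MLN, and neighbours in that order were not called different. With the block, Liver minus Spleen was 0.54 (95% interval 0.09 to 0.99), PLN minus Spleen was -0.25 (-0.70 to 0.20) and MLN minus PLN was -0.57 (-0.96 to -0.18). The blocked limma adjusted p was 0.520, 0.786 and 0.586 for these pairs. Liver minus PLN was 0.79 (SE 0.18 with the block), with a blocked adjusted p of 0.0545, and MLN minus Spleen was -0.82 (SE 0.21 with the block), with 0.119. Liver minus PLN passed with the block in 5 of 11 fits that left out 1 array, where the limma adjusted p was 0.0283 when Liver replicate 3 was left out. It was 0.0454 for MLN replicate 2, 0.0494 for MLN replicate 3, 0.0480 for Spleen replicate 3 and 0.0485 for Spleen replicate 4. In the other fits it reached 0.313, without Liver replicate 2. In these 5 pairs none of the 5 receptor genes passed in either fit. The share of all genes that passed was 0.0% for Liver minus Spleen, 0.0% for PLN minus Spleen, 0.0134% for MLN minus PLN, 0.0% for Liver minus PLN and 0.0% for MLN minus Spleen without the block. With it the shares were 0.0%, 0.0%, 0.148%, 1.49% and 0.215%.

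Within each number the same order of extremes was seen. Pdcd1 in the Liver culture exceeded the mean of the other cultures of its number by 1.31, 0.58 and 1.0 at numbers 2, 3 and 4. The MLN culture differed from the mean of the others by -1.38, -0.59 and -0.86. An exact permutation of organ labels within numbers, two-sided over 48 arrangements, gave p = 0.0208 for Liver, the smallest it can give, and 0.0417 for MLN. These are 2 of 28 such tests, 1 for each probe set and organ, and none of the 28 passed after Benjamini-Hochberg adjustment over them.

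Promoter sequence is shown for Pdcd1, the gene that differed by organ, and for Ctla4 and Havcr2, 2 of the genes that differed by number, to give the start-site regions of the genes with calls. RefSeq promoter entries on GRCm38.p6 matched 4 of the 5 genes: Pdcd1, Ctla4, Havcr2 and Cd160. The 250 bases before each start site are printed 5′ to 3′ in the direction of the gene. Capitals mark the core letters bound by NFAT (GGAAA, or TTTCC on the other strand), an AP-1 motif (TGANTCA, the same on both strands) and a RUNX motif (TGTGGT, or ACCACA on the other strand). These transcription factors are known to act downstream of T cell stimulation or in T cell differentiation.
Pdcd1, chr1:94052554-94052803, minus strand: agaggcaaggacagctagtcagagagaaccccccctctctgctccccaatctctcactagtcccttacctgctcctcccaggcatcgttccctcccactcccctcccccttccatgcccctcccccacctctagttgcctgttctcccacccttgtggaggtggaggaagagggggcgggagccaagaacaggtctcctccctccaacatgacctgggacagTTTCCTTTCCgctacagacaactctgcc
Ctla4, chr1:60908775-60909024, plus strand: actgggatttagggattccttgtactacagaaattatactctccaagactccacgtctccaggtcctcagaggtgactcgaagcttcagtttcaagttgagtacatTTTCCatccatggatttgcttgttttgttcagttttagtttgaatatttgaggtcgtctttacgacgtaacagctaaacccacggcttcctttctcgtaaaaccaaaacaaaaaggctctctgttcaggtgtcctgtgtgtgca
Havcr2, chr11:46454681-46454930, plus strand: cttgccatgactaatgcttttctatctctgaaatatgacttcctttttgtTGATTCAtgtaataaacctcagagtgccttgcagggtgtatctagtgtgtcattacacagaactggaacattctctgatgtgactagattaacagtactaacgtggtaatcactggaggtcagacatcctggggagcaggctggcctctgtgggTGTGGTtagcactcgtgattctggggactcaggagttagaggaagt

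The Pdcd1 stretch holds 2 adjoining NFAT cores on the reverse strand, whose first letters lie at -28 and -23 from the start site. The Ctla4 stretch holds 1 NFAT core on the reverse strand at -144. The Havcr2 stretch holds an AP-1 motif at -200 and a RUNX motif at -46. Cd160, which passed no comparison, has 2 promoter entries, 1 with a RUNX motif at -76 and the other with an NFAT core at -145 and a RUNX motif at -101. Over 32851 promoter windows of 300 bases, 61.3% hold the NFAT core, 7.81% the AP-1 motif and 16.8% the RUNX motif. A match of letters is a description, and no binding was measured.

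Lag3 passed both comparisons between array numbers and none between organs. Its deposited intensities were 1194, 753 and 1756 in Liver cultures numbered 2, 3 and 4, and 1111, 808 and 1933 in MLN cultures. PLN cultures had 1206, 772 and 2045, and Spleen cultures numbered 3 and 4 had 835 and 1942. The 3 numbers did not overlap: every array numbered 4 lay above every array numbered 2, and every array numbered 2 above every array numbered 3. Such separation was not counted over all tested genes, of which 18.9% passed in 3 minus 2 and 43.3% in 4 minus 3.

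Lag3 averaged 10.21 ± 0.06 (SD, n = 3) on the log2 scale at number 2, 9.65 ± 0.06 (SD, n = 4) at number 3 and 10.91 ± 0.10 (SD, n = 4) at number 4. With organ held in the fit, number 3 differed from number 2 by -0.58 (SE 0.08; limma adjusted p = 0.000674) and number 4 from number 3 by 1.26 (SE 0.07; limma adjusted p = 5.23e-07). In each organ the 4-minus-3 difference lay between 1.18 and 1.39. Across organs the Lag3 means were 10.19 in Liver, 10.25 in MLN, 10.31 in PLN and 10.33 in Spleen, and Liver minus MLN was -0.05 with a blocked 95% interval of -0.22 to 0.12.

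Ctla4 and Havcr2 also passed both comparisons between numbers. For number 3 minus 2, 3 of the 5 receptor genes passed, 1 higher (Havcr2) and 2 lower (Ctla4 and Lag3), where 18.9% of all tested genes passed, 9.29% higher and 9.59% lower. For number 4 minus 3, 3 of 5 passed, all higher (Lag3, Havcr2 and Ctla4), where 43.3% of all tested genes passed, 22.3% higher and 21.0% lower. Differences between numbers were thus widespread among all genes. The labels do not say whether a number is a day, a set of animals or a batch, so none of these can be told apart.

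**Figure D3:**
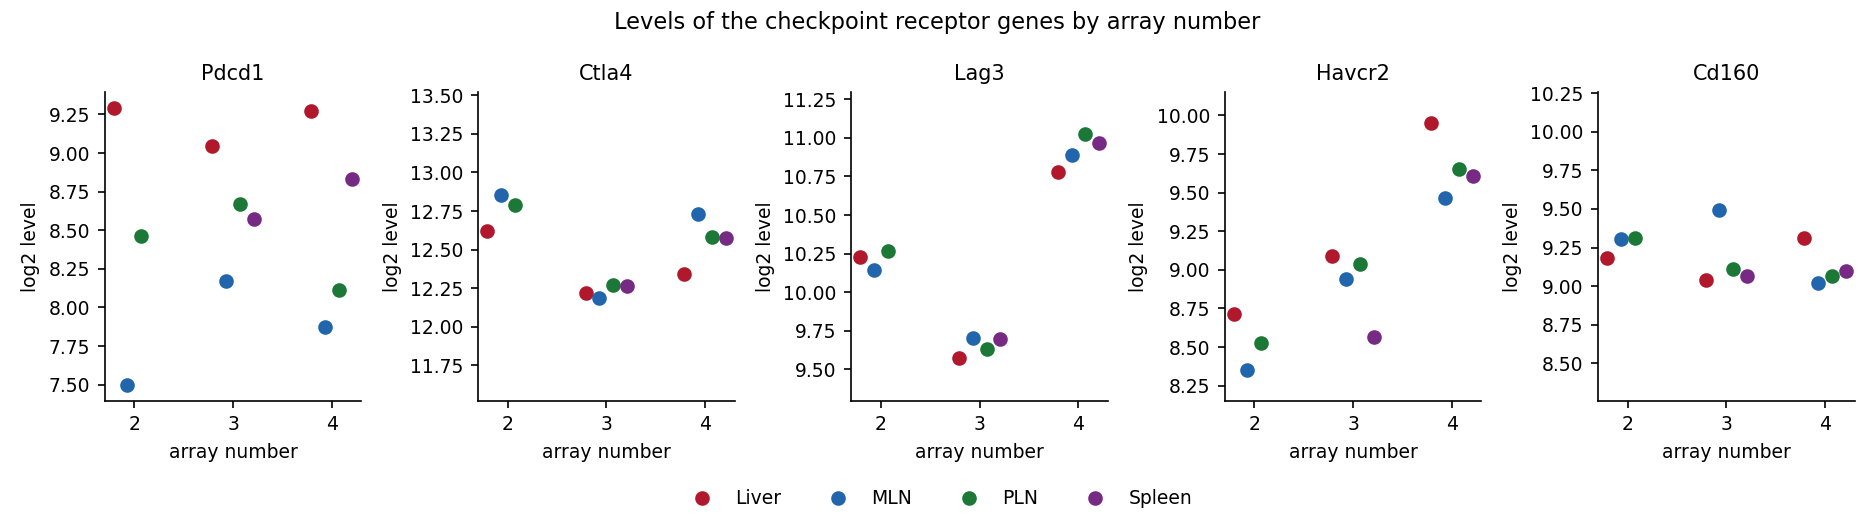
Normalized log2(intensity + 16) of each gene's tested probe set by array number, with 1 point per array coloured by the organ of the DCs. All arrays numbered 4 lie above all arrays numbered 3 for Lag3, Ctla4 and Havcr2. How many of all tested genes separate in this way was not counted, while 43.3% of them passed in 4 minus 3. Liver lies above MLN at each number for Pdcd1 and Havcr2.

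Ctla4 had deposited intensities of 6189, 4645 and 5432 in Liver cultures, and 7987, 4703 and 7172 in MLN cultures, numbered 2, 3 and 4. PLN cultures had 7796, 4942 and 6021, and Spleen cultures numbered 3 and 4 had 4571 and 5843. All 4 arrays numbered 3 lay below all other arrays, a separation that was not counted over all tested genes. On the log2 scale number 3 differed from number 2 by -0.53 (SE 0.07; limma adjusted p = 0.000603) and number 4 from number 3 by 0.32 (SE 0.06; limma adjusted p = 0.00108). Both calls held in all 19 alternative settings.

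By organ, Ctla4 averaged 12.39 ± 0.21 in Liver, 12.59 ± 0.36 in MLN and 12.55 ± 0.26 in PLN cultures (SD, n = 3 each), and 12.42 ± 0.22 in Spleen cultures (SD, n = 2). Liver lay below the mean of the other organs at each number, with differences of -0.20, -0.02 and -0.29 (exact permutation p = 0.0417, which did not pass after adjustment over the 28 tests). The blocked limma difference of -0.17 (95% interval -0.29 to -0.04) had an adjusted p of 0.178 and was not called.

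Havcr2 had deposited intensities of 413, 533 and 979 in Liver cultures, and 309.8, 470.2 and 683 in MLN cultures, numbered 2, 3 and 4. PLN cultures had 346, 504 and 788, and Spleen cultures numbered 3 and 4 had 370.4 and 766. All 4 arrays numbered 4 lay above all other arrays, while those numbered 2 and 3 overlapped. This separation, too, was not counted over all tested genes.

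On the log2 scale Havcr2 differed by 0.45 (SE 0.10) between numbers 3 and 2 (limma adjusted p = 0.0120) and by 0.76 (SE 0.09) between numbers 4 and 3 (limma adjusted p = 5.90e-05). The first of these calls was lost when either MLN array of those numbers was left out (0.0558 without replicate 2 and 0.0554 without replicate 3). It was also lost without PLN replicate 2 (0.0525), without PLN replicate 3 (0.0509) and when organ was left out of the fit (0.0988). Within numbers Havcr2 was above the mean of the other organs in Liver, by 0.27, 0.24 and 0.37 (exact permutation p = 0.0417, which did not pass after adjustment over the 28 tests). The blocked limma difference of 0.32 (95% interval 0.12 to 0.51) had an adjusted p of 0.0984, and passed, at 0.0462, only when Spleen replicate 4 was left out.

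**Figure D4:**
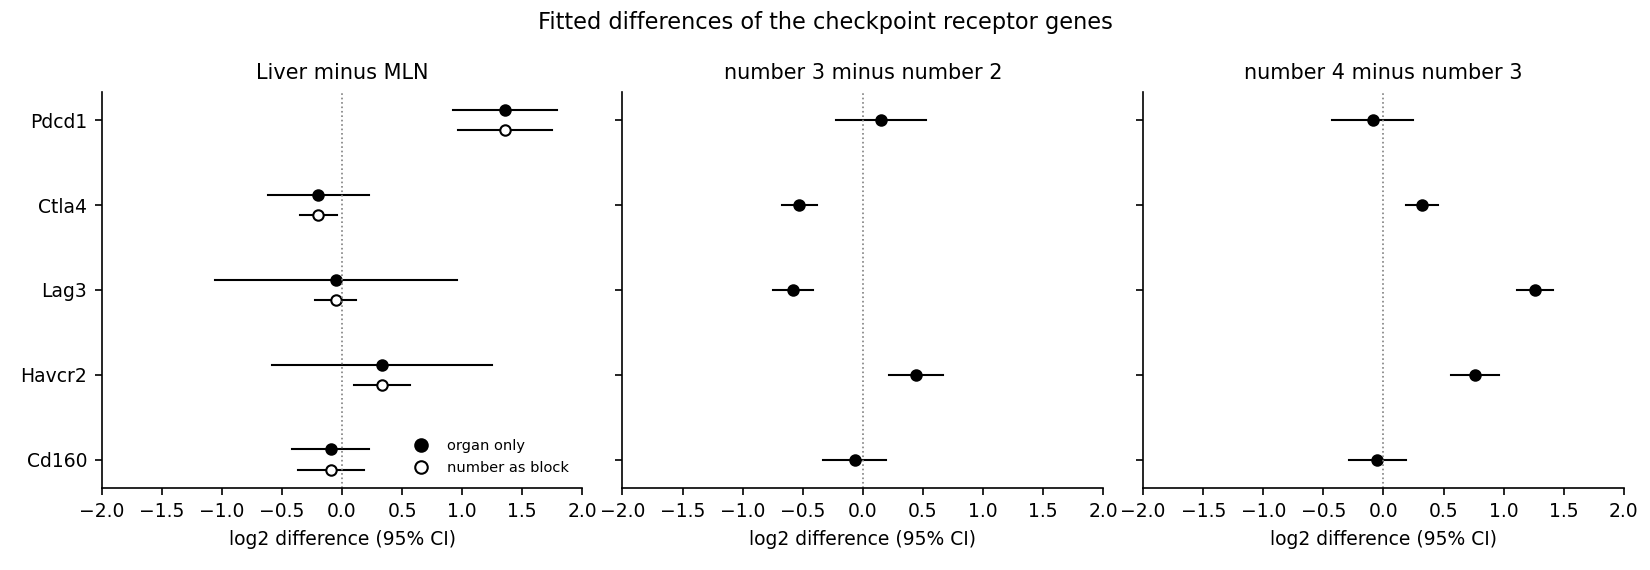
Fitted log2 differences with 95% confidence intervals for the 5 genes: Liver minus MLN without a block (filled) and with number as a block (open), and the differences between array numbers with organ held in the fit. In Liver minus MLN the interval of Pdcd1 clears 0 in both fits, and those of Ctla4 (-0.35 to -0.05) and Havcr2 (0.10 to 0.57) clear 0 with the block, though neither gene passed after adjustment over all genes. Between numbers the intervals of Ctla4, Lag3 and Havcr2 clear 0 and those of Pdcd1 and Cd160 span it.

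Cd160 did not pass any comparison. Its 3 probe sets differed in level and in the sign of the uncalled 4-minus-3 difference, and they were not tested against each other. The tested probe set, 1420396_at, averaged 9.18 ± 0.14 in Liver, 9.27 ± 0.24 in MLN and 9.16 ± 0.13 in PLN cultures (SD, n = 3 each), and 9.08 ± 0.03 in Spleen cultures (SD, n = 2). Its intensities ran from 494 to 698, and 70.3% of its variance went with neither organ nor number. Probe set 1420066_s_at ran from 287.5 to 539 and had a 4-minus-3 difference of 0.45 (SE 0.15), which did not pass in the fit of every probe set by itself (limma adjusted p = 0.0604), against -0.05 (SE 0.11) for the tested one.

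The third Cd160 probe set, 1420067_at, was dim, at 12.6 to 83.8. It read 83.8, 12.6 and 50.9 in Liver cultures numbered 2, 3 and 4, and 69.5, 44.8 and 16.1 in MLN cultures. All 3 PLN arrays, at 13.5, 15.8 and 15.9, were low, but so were Liver replicate 3 and MLN replicate 4. The PLN difference from the mean of the other organs, at -0.95 with the block, had a limma adjusted p of 0.755.

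No pair of receptor genes was correlated past the threshold across the arrays. After number means were subtracted, Pdcd1 and Ctla4 had Pearson's r = -0.78 and Spearman's rho = -0.70 over the 11 arrays (exact permutation within numbers, p = 0.0202 and 0.0561). Ctla4 and Havcr2 had r = -0.75 and rho = -0.70 (p = 0.0104 and 0.0385), and Pdcd1 and Havcr2 had r = 0.69 and rho = 0.73 (p = 0.0237 and 0.0191, exact permutation). After Benjamini-Hochberg adjustment over the 10 pairs of receptor genes the smallest exact permutation p was 0.0791 for r and 0.187 for rho, so no pair passed. Without the 2 arrays farthest from the median on the x axis, the 3 values of r were -0.70, -0.55 and 0.60.

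The genes whose number-centred pattern over the 11 arrays was most like that of Pdcd1 were Hmgb3, a chromatin protein (r = 0.988), Klrk1, the activating receptor NKG2D of natural killer and CD8 T cells (0.978), and Card19 (0.970). Klrk1 averaged 10.90 in Liver, 9.72 in MLN, 10.23 in PLN and 10.32 in Spleen cultures, the same order of organs as Pdcd1. For Havcr2 the closest were Slfn8 (0.968), Ccdc82 (0.948) and Ppp4r3b (0.924). For Lag3 they were Ier3ip1 (0.937), Tmem123 (0.915) and Kctd9 (0.903), for Ctla4 Ppm1b (0.925), Csgalnact1 (0.922) and Rpusd4 (0.908), and for Cd160 Nup188 (0.940), Ints5 (0.904) and Lor (0.893). These are the highest of 7436 genes by construction and are given without a test.

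Ctla4 lies on chromosome 1 between 2 costimulatory receptor genes, Cd28 and Icos, in the RefSeq gene order, and Lag3 on chromosome 6 between Cd4 and Ptms. Neighbours were taken by position, after other values of these data had been seen, and their signs differed. Cd28, whose product shares its ligands with CTLA-4, fell at number 3 against number 2 by 0.42 (limma adjusted p = 0.00681) and was higher at number 4 than 3 by 0.76 (1.50e-05), as Ctla4 was. Icos differed by 0.36 (limma adjusted p = 0.00967) and -0.17 (0.0707), the other way. Cd4 differed by 0.37 (limma adjusted p = 0.0117) and -0.34 (0.00327), opposite in sign to Lag3 in both comparisons, whereas Ptms, a small nuclear protein gene, differed by -0.07 (limma adjusted p = 0.631) and 1.07 (1.22e-06). In Liver minus MLN with the block, Cd28 (0.46; limma adjusted p = 0.0148) and Icos (0.38; 0.0255) rose, opposite in sign to the uncalled Ctla4 (-0.20; 0.163), while Cd4 (0.32; 0.0712) and Ptms (0.14; 0.482) did not pass. The other tested neighbours, Fam174a of Pdcd1, Med7 of Havcr2 and Rnf115 of Cd160, passed in none of these comparisons.

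Other inhibitory receptor genes were set beside the 5, of which 11 of 14 were measured and 9 tested. In Liver minus MLN 0 of 9 passed without the block, where 0.161% of all tested genes passed. With it 3 rose and 1 fell, where 4.13% of all tested genes passed. The median was 0.13 against 0.01 over all tested genes. Klrc1, which encodes the inhibitory NKG2A chain, rose by 1.36 (SE 0.15; blocked limma adjusted p = 0.000626). Fcgr2b, an inhibitory Fc receptor gene, rose by 0.69 (0.0203), Cd5, a negative regulator of antigen receptor signalling, by 0.57 (0.0303), and Vsir, which encodes VISTA, fell by 0.39 (0.0370). Between numbers 4 and 3, 7 of 9 rose and 1 fell, where 22.3% of all tested genes were higher and 21.0% lower, with a median of 0.49 against 0.01 over all tested genes. Vsir, at 1.35 (limma adjusted p = 6.90e-07), Cd244a, at 0.91 (8.29e-05), and Cd96, at 0.88 (0.000342), were among those that rose, and Cd200r1, at -1.15 (7.13e-05), fell.

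In Liver minus MLN 0 of 11 tested checkpoint ligand genes passed in either fit, where 0.161% of all tested genes passed without the block and 4.13% with it, and those of smallest p were the class II chain gene H2-Ab1, at -0.59 (blocked limma adjusted p = 0.0790), and Icosl, the ligand gene of ICOS, at -0.49 (0.152). Between numbers 3 and 2, where 18.9% of all tested genes passed, 4 of 11 rose: Cd274, which encodes PD-L1, by 0.71 (SE 0.09; limma adjusted p = 0.000527), Cd86 by 0.92 (0.00213), Cd80 by 0.54 (0.00533) and Pdcd1lg2, which encodes PD-L2, by 0.34 (0.0195). Between numbers 4 and 3, where 43.3% of all tested genes passed, 1 rose and 5 fell: Cd86 fell by 1.68 (limma adjusted p = 3.47e-06), Cd274 by 0.62 (7.32e-05), H2-Eb1 by 0.76, H2-Aa by 0.59 and Cd80 by 0.44, and the galectin gene Lgals3 rose by 0.62. H2-Aa and H2-Eb1, like H2-Ab1, encode class II chains. Tnfrsf14, the ligand gene for Cd160, was at 4.5 to 10.6 in intensity and was not tested.

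Transcripts of signalling proteins that act below inhibitory receptors were tested for 11 genes. In Liver minus MLN 0 passed without the block and 1 rose with it, where 0.161% and 4.13% of all tested genes passed. This was Dgkz, a diacylglycerol kinase gene, at 0.22 (SE 0.06; limma adjusted p = 0.0478). Between numbers 4 and 3, 5 rose and 1 fell, a share near the 43.3% of all tested genes, with Ptpn6, the gene of the phosphatase SHP-1, at 0.25 (limma adjusted p = 0.0278), Dgka at 1.02 (limma adjusted p = 1.09e-06) and the phosphatase gene Ptpn22 at 0.84 (2.58e-06). Between numbers 3 and 2, 3 of 11 fell, where 18.9% of all tested genes passed, with Ptpn22 at -0.58 (limma adjusted p = 0.000575), Dgkz at -0.36 (0.00132) and Dgka at -0.45 (0.00248).

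Costimulatory receptor genes were split in Liver minus MLN: with the block 3 of 8 rose (Cd2 by 0.55, Cd28 by 0.46 and Icos by 0.38) and 2 fell (Tnfrsf18 by 0.63 and Tnfrsf4 by 0.64), while 0 passed without it. Of all tested genes 4.13% passed with the block and 0.161% without it. Of 24 tested regulators of activation and exhaustion, 1 fell without the block, the transcriptional repressor gene Hic1, by 1.48 (SE 0.15; limma adjusted p = 0.00328). With it Jun also fell, by 0.92 (0.00239), and Nr4a1, a nuclear receptor gene induced by antigen receptor signals, rose by 0.55 (0.0478). Of 9 activation markers, 0 passed in Liver minus MLN in either fit, and 4 were higher and 5 lower. Among them Cd44 was at 0.36, Mki67 at 0.24 and Il2ra at -0.23.

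Between numbers 3 and 2, 5 of 9 activation markers rose and 1 fell, where 18.9% of all tested genes passed, with Il2 at 1.85 (SE 0.26; limma adjusted p = 0.00106), Ifng at 1.68 (0.000152) and Tfrc at 0.72 (5.49e-05). Between numbers 4 and 3, 1 rose and 3 fell, a share near the 43.3% of all tested genes: the perforin gene Prf1 rose by 1.63 (limma adjusted p = 5.23e-07), and Il2 fell by 2.66 (6.09e-06), Il2ra by 0.58 and Tfrc by 0.25. Among the regulators, 9 of 24 rose and 4 fell between numbers 4 and 3, a share near that same 43.3%. Among those that rose were Prdm1, whose product BLIMP-1 is known from effector and exhausted cells, by 0.62, and Tbx21, by 0.58. Tox, a factor needed for exhausted T cells to persist, was among those that fell, by 0.54 (limma adjusted p = 0.0127). It was dim, at 63.7 to 166 in intensity. The other regulators that passed in 4 minus 3 are not named here.

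Some markers of other cells moved with both kinds of difference, and their part in the receptor results was not tested. Beside the organ difference of Pdcd1, the summed intensity of 5 natural killer markers was 4351 to 8330 in Liver, 2666 to 5891 in MLN, 3620 to 5950 in PLN and 3486 to 7110 in Spleen cultures. Most of this sum was Klrd1 (1261 to 5183) and Klrk1 (703 to 2309). With the block 2 of the 3 tested natural killer markers rose in Liver minus MLN, where 4.13% of all tested genes passed. These were Klrk1, by 1.18, and Klrd1, by 0.78, while Ncr1, a defining marker, stayed between 34.1 and 84.3. The same 4.13% applies to the counts of the other lists in that comparison. The sum of 9 macrophage, monocyte and Kupffer cell markers was 2803 to 3788 in Liver, 2324 to 3181 in MLN, 2570 to 3236 in PLN and 3352 to 4069 in Spleen cultures, and 2 of 5 tested rose in Liver minus MLN with the block, Lyz2 by 1.0 and Cd14 by 1.37. Most of the macrophage, monocyte and Kupffer cell sum was Ctss (1862 to 3076). The Kupffer cell markers Clec4f (6.4 to 55.2) and Marco (3.5 to 13.5) were near the floor. The sum of 7 T cell markers was 25747 to 33571 in Liver and 24100 to 33003 in MLN cultures, of which 2 rose with the block, Cd2 and Cd5. The sum of 5 regulatory T cell markers was 7528 to 11634 in Liver and 10905 to 14598 in MLN cultures. Most of it was Il2ra (3621 to 6324), also listed here as an activation marker, and Tnfrsf18 (3602 to 9518). Foxp3, at most 174, averaged 6.86 in Liver and 6.71 in MLN on the log2 scale. Ikzf2, at most 142, averaged 6.63 and 6.34, and neither was tested. In Liver minus MLN with the block Nrp1 rose by 0.78 and Tnfrsf18 fell by 0.63 among 3 tested. The sum of 13 DC markers was 8689 to 15322 in Liver and 10935 to 16630 in MLN cultures, where 1 of 11 fell, Batf3, by 0.69 (blocked limma adjusted p = 0.0496).

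Beside the differences by number, the summed intensity of 13 DC markers was 10602 to 12156 at number 2, 15322 to 16630 at number 3 and 8478 to 11057 at number 4. Between numbers 3 and 2, where 18.9% of all tested genes passed, 3 of the 11 tested DC markers rose and 1 fell. Between numbers 4 and 3, where 43.3% of all tested genes passed, 2 rose and 8 fell. Among those that fell were Ccl22, by 1.83, and Fscn1, by 1.32. Itgax, which encodes CD11c, rose by 1.85 between numbers 4 and 3, and Zbtb46, a DC factor, was at 31.3 to 169 and not tested. The sum of the 7 T cell markers was 24100 to 26826, 24316 to 25747 and 28072 to 33571 at numbers 2, 3 and 4. In 4 minus 3, 3 of these rose, with Cd3e at 0.91, and 1 fell, and all 3 tested natural killer markers rose, with Klrd1 at 1.37. The sum of the 5 regulatory T cell markers, mostly Il2ra and Tnfrsf18, was 9025 to 15635, 11634 to 14598 and 7528 to 10905. All 3 tested markers of this list fell in 4 minus 3, with a median of -0.58, where 21.0% of all tested genes were lower. One count went the other way: 1 of the 3 rose in 3 minus 2. Foxp3, at 31.5 to 174 and not tested, averaged 7.05, 7.44 and 5.89 on the log2 scale at numbers 2, 3 and 4. The sum of the 4 B cell markers was 11267 to 12085, 8143 to 11474 and 9432 to 10815 at numbers 2, 3 and 4. In 3 minus 2, 1 of them fell, Cd79b by 0.87. In 4 minus 3, 2 were higher, Cd79a at 0.59 and Cd79b at 0.51. Both counts lay near the shares of all tested genes that passed. The sum of the 9 macrophage, monocyte and Kupffer cell markers was 2570 to 3755, 3181 to 4069 and 2324 to 3352. In 4 minus 3 Ctss fell by 0.43 and Lyz2 by 0.63 among 5 tested, a share near the 43.3% of all tested genes.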

How the data were processed

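The authors deposited linear intensities, 1 for each probe set on each array, and how probes were summarised, and with which software, is not given in the sources used here. These deposited intensities ran from 0.1 to 21556.3, and their 2% trimmed mean was 500.2 on every array, so the arrays carry a common scaling. From these intensities log2(intensity + 16) was computed and quantile normalized over 22690 probe sets less 64 controls. Before normalization the array medians spanned 0.22 on the log2 scale. Symbols came from the platform annotation, updated through RefSeq gene IDs: 20380 probe sets had 1 symbol, of which 20351 matched RefSeq, 691 had several and 1555 had none.

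For each of 12393 genes the probe set of highest mean was kept, and the upper 60% by mean, 7436 genes, were tested with limma 3.58.1 (R 4.3.3; eBayes with trend; Benjamini-Hochberg adjusted p of 0.05 over all tested genes). The lowest mean intensity tested was 104.7. Organ was fitted alone (7 residual degrees of freedom) and with the replicate number as a block (5 residual degrees of freedom), and number contrasts came from the fit of both terms. The replicate numbers come from the labels. After organ means were removed, the correlation was 0.412 to 0.731 over the 15 same-numbered pairs of arrays and -0.708 to 0.0841 over the 30 pairs differing in number and organ, so the numbers were taken to pair the arrays. Exact permutations used Python 3.11.15 and scipy 1.17.1. The scripts were tested on simulated data.

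No label says whether arrays of an organ come from separate animals or cultures, and the p-values therefore reflect only how far these arrays spread, possibly for technical reasons, and the number of arrays limits the precision. The receptor genes and 17 lists of related genes and cell type markers (138 of 160 entries measured) were chosen with earlier results of these data known. Named from the lists were genes among those that passed over all tested genes and among those of smallest p in a comparison. For each receptor gene the 3 genes of highest r were named. Alternatives covered the block, normalization, pseudocount, filter, choice of probe set, variance trend and each array left out.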

Additional observations from a re-analysis of the deposited data

How the results depend on the processing

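With the replicate number as a block, the counts of genes past the threshold were 147 for the F-test against 3 without it, and, for each organ set against the rest, 159 against 0 for Liver, 101 against 7 for MLN and 1 against 0 for PLN. They were 307 against 12 for Liver minus MLN, 111 against 0 for Liver minus PLN, 11 against 1 for MLN minus PLN and 16 against 0 for MLN minus Spleen. With the block, leaving out 1 array at a time moved these counts to 35 to 185 for the F-test, 7 to 208 for Liver, 34 to 131 for MLN and 0 to 3 for PLN against the rest, 71 to 321 for Liver minus MLN, 1 to 238 for Liver minus PLN, 6 to 12 for MLN minus PLN and 10 to 34 for MLN minus Spleen. For Liver minus MLN the count was 89 without Liver replicate 2, 133 without Liver replicate 4, and 71, 163 and 104 without MLN replicates 2, 3 and 4. Without the block, testing every probe set by itself gave 1 gene for the F-test, 1 for Liver against the others, 5 for Liver minus MLN and 0 for MLN minus PLN. No filter gave 1 for Liver against the others and 6 for Liver minus MLN, and the mean of a gene's probe sets gave 7 and, for MLN minus PLN, 0. Number 3 minus 2 gave 935 under median centring, against 1404. Without the block, leaving out 1 array at a time gave 0 to 3 genes for the F-test, and, against the mean of the others, 0 to 2 for Liver, 2 to 9 for MLN and 0 to 1 for Spleen. It gave 3 to 9 for Liver minus MLN, 0 to 1 for MLN minus PLN and 0 to 1 for MLN minus Spleen. Number 3 minus 2, from the fit of organ and number, gave 657 to 1387 genes when 1 array was left out. For Pdcd1, Liver minus MLN without the block had a limma adjusted p of 0.0554 with no filter and 0.0722 with every probe set tested by itself. With every probe set tested by itself and the block, it was 0.0835 for Liver and 0.0649 for MLN against the mean of the others and 0.0914 for the F-test. With the block and median centring, Liver minus PLN passed for Pdcd1, at 0.0395. Lag3 and Ctla4 passed both number contrasts in 19 of 19 alternatives, and Havcr2 in 19 of 19 for 4 minus 3 and 14 of 19 for 3 minus 2. No value that passed changed sign under any alternative run. The cause was not tested. Intensities near the floor, such as 1420067_at for Cd160, limit what a difference there can show.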
